A study of Mus musculus with 12 samples.

Results

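Receptors for the inhibitory transmitters GABA and glycine and for the excitatory transmitter glutamate were followed across cortex, cerebellum and liver of an adult mouse of the NMR-1 strain. All probe sets of the MG_U74Av2 array, an Affymetrix oligonucleotide array of mouse transcripts, were taken whose platform annotation gave a single symbol of the families Gabr, Gabbr, Glra, Glrb, Gria, Grik, Grid, Grin or Grm. This gave 33 probe sets for 26 genes, out of 12422 probe sets tested and 8251 genes named on the array. The rule used symbols and no measured value. In the 3X groups, RNA of cortex, cerebellum or liver started from 1 ng and went through 3 linear amplifications with the RiboAmp HS kit, with 3 technical replicate arrays per tissue. In the 1X groups, RNA of the same tissues started from 5 µg and had 1 linear amplification by the standard Affymetrix protocol, with 1 array per tissue. Input amount, kit and number of amplifications changed together. The RNA came from 1 animal, was isolated with TRIzol and column purified, so the p-values below reflect technical spread among arrays and not variation among mice.

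GABA-A receptors are chloride channels assembled from alpha, beta, gamma, delta and rho subunits, and the subunits present set where in the neuron the receptor sits and which drugs act on it. GABA-B receptors signal through G proteins and dampen transmitter release and excitability, and glycine receptors are chloride channels best known from spinal cord and brainstem. AMPA receptors (Gria1 to Gria4) carry most fast excitatory current, NMDA receptors (Grin genes) couple that activity to calcium entry, kainate receptors (Grik genes) tune transmission, and the metabotropic Grm receptors act through G proteins. Cerebellar granule cells are known for a GABA-A receptor with the alpha6 subunit, encoded by Gabra6. The families were represented unevenly: 11 probe sets for 10 GABA-A genes, 8 for the 4 AMPA genes, 5 for 3 kainate genes, 4 for 4 NMDA genes, 2 for 2 glycine receptor genes, and 1 each for a GABA-B gene, a delta glutamate receptor gene and a metabotropic glutamate receptor gene. The Grm family was represented by Grm8 alone, and Grin1, the NMDA subunit common to these receptors, was not among the probe sets analysed here.

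Promoters were looked up for the genes that stood out below, to show the sequence context of a subunit measured high in cerebellum and of a pair of subunits measured higher in both brain regions than in liver. RefSeq promoters (GRCm38.p6) matched 18 of the 26 genes with 24 annotated starts, and the 250 bases before each start were searched on both strands for the core of the nuclear factor I motif, TTGGC, and for the GC box, GGGCGG. The motif core was present in 8 of the 24 member starts, against 41.5% of all 32851 promoters, and the GC box in 9 of the 24, against 32.7%. The window of Gabra6 (chr11:42321073-42321322, minus strand) was 40.8% G and C with 2 CpG sites, against a median of 52.4% and 6 CpG sites over all promoters. It held the complement of TTGGC, in capitals, 49 bases before the start, and no GC box. The window of Gabbr1 (chr17:37045716-37045965, plus strand) was 66.0% G and C with 16 CpG sites, and its GC boxes, in capitals, began 76 and 48 bases before the start. The window of Glrb (chr3:80913661-80913910, minus strand) was 62.4% G and C with 20 CpG sites, and the complement of the GC box, in capitals, lay 49 bases before the start. Gria2, Gabrb1 and Gria4, also called higher in brain than in liver below, had no GC box in their windows. A match of letters is a description and shows no binding. The windows are given from 5′ to 3′ on the strand of the gene.
Gabra6: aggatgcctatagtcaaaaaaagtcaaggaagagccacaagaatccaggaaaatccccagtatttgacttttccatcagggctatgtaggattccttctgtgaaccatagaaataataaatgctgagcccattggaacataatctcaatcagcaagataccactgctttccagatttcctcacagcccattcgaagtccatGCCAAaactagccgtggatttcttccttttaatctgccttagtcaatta
Gabbr1: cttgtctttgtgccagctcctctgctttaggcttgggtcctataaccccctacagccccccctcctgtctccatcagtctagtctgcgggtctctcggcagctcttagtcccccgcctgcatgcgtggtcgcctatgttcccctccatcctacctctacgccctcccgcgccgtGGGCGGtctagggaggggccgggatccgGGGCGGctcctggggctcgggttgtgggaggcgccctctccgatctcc
Glrb: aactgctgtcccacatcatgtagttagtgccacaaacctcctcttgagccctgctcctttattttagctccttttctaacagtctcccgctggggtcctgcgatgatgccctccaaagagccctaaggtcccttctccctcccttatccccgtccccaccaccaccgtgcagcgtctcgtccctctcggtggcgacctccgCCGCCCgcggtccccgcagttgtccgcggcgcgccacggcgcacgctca

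Signals are the authors' log2 values from RMA, so a difference of 1 is a 2-fold difference, and the median signal of an array lay between 3.45 and 3.48. RMA gives no detection call. Of the 33 receptor probe sets, 14 were above the array median on all 12 arrays, 7 on none and 12 on some. A signal below the median was not taken as shown to be above background, which is a rule of reading and no detection limit. The median SD of the 3 arrays of a tissue at 3X over the receptor probe sets was 0.14 in cortex, 0.11 in cerebellum and 0.13 in liver, against 0.11, 0.10 and 0.13 over all probe sets. The tissue labels were checked with marker lists. At 3X, 6 of 7 hepatocyte markers were lower in brain than in liver, and their mean signal was at most 4.44 on brain arrays and 9.99 to 11.05 on liver arrays. Of 8 markers of cerebellar granule and Purkinje cells, a list that includes Gabra6 itself, 6 were higher in cerebellum than in cortex, and 3 of 6 markers of cortical projection neurons were higher in cortex. Kidney transcripts moved with the cerebellum label, by a list chosen with earlier results of these data known. Of 11 kidney genes, 8 were higher in cerebellum than in cortex, against 0.628% of all probe sets. The mean signal of the 11 at 3X was 4.46 to 4.63 in cerebellum, 3.16 to 3.22 in cortex and 4.29 to 4.48 in liver. At 1X the same mean was 4.44 in cerebellum, 2.87 in cortex and 4.08 in liver. The liver mean drew on Fbp1, Hsd3b2 and Hao2, at 10.77, 4.80 and 3.82 in liver at 3X, against 4.47, 1.28 and 0.48 in cortex. Only these 3 were called between cortex and liver. Kap, Miox and Umod had 4.96, 4.85 and 5.13 in liver, against 4.96, 4.85 and 5.14 in cortex. The part of kidney RNA in any difference of the cerebellum arrays was not tested.

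**Figure D1:**
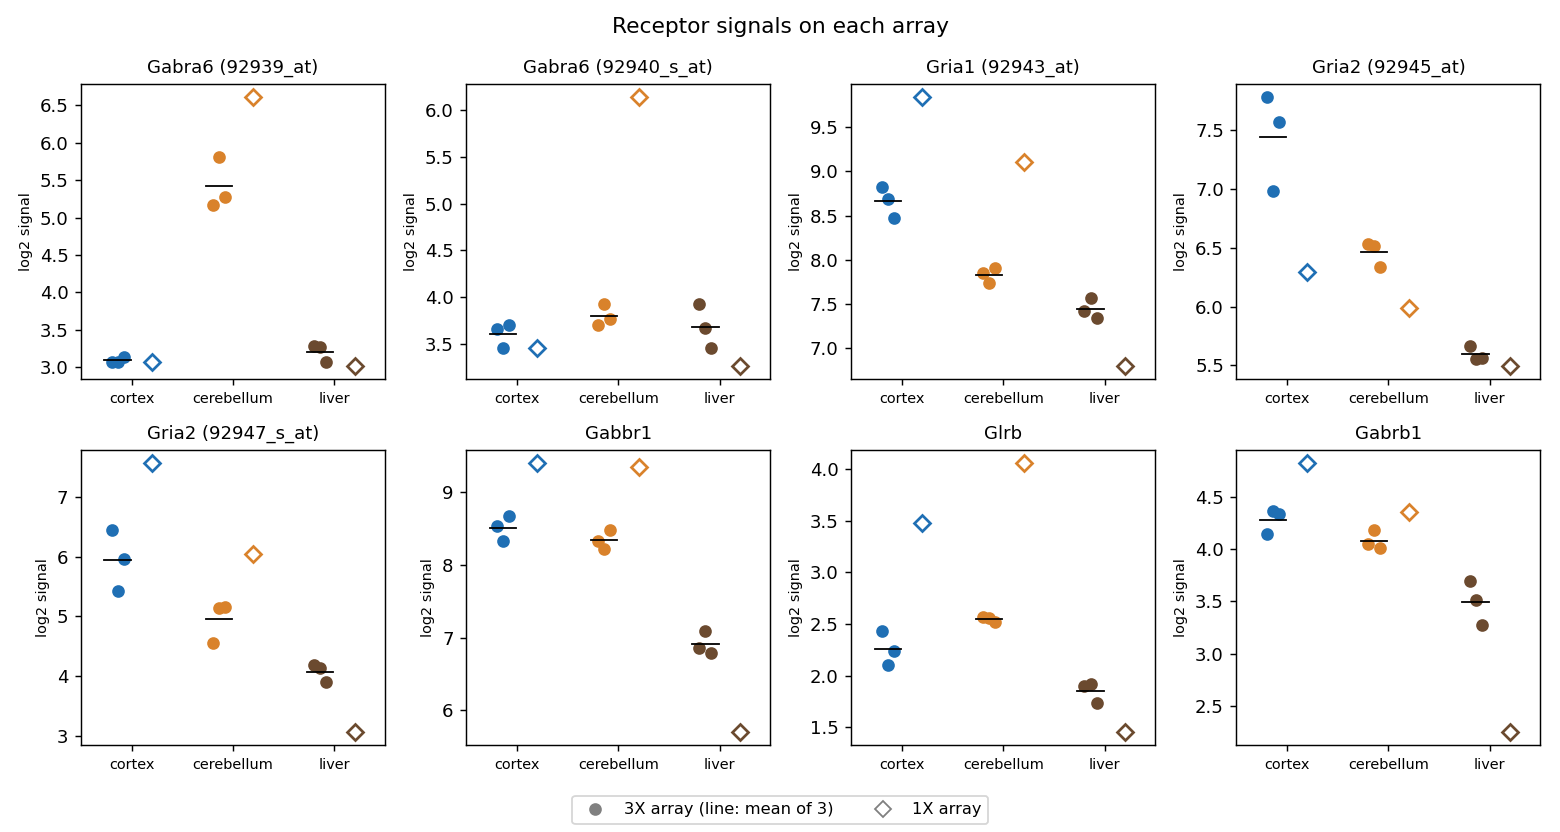
Log2 signal (vertical axis, a separate scale for each panel) of 8 receptor probe sets on each of the 12 arrays, with filled points for 3X arrays, lines for their means over 3 arrays and open diamonds for the 1X array of a tissue. Gabra6 set 92939_at was high only on cerebellum arrays, Gria1 and Gria2 stood highest in cortex at 3X, and for Gabbr1, Glrb, Gabrb1 and Gria1 the 1X brain arrays lay above and the 1X liver array below the 3X arrays of the same tissue.

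The first comparison asked which receptor genes differ between the brain regions, with cortex set against cerebellum on the 3X arrays. Gabra6 was lower in cortex, where its signal was below the array median, while the AMPA receptor genes Gria1 and Gria2 were 1.78-fold and 1.98-fold higher in cortex. These 3 of the 33 probe sets passed an adjusted p under 0.05 (limma, Benjamini-Hochberg over all 12422 probe sets), which is 9.09% of the receptors, against 1.06% of all probe sets. The other 30 did not pass. Bulk signals cannot tell fewer cells of a type from less RNA per cell.

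Gabra6 encodes the alpha6 subunit of the GABA-A receptor. Its set 92939_at had signals of 3.07, 3.07 and 3.14 on the cortex arrays, against 5.17, 5.82 and 5.27 on the cerebellum arrays. The groups were far apart, and all cortex values were below the array median and close to the liver values of 3.28, 3.27 and 3.07. The difference, cortex minus cerebellum, was -2.33 ± 0.15 (SE, 3 arrays each, limma adjusted p = 3.19e-05). It is a difference of signals and no measured ratio of RNA, since the cortex signals were not shown to be above background. The 1X arrays, which the fit did not use, had 3.07 in cortex and 6.61 in cerebellum, a difference of -3.54.

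A second set of Gabra6, 92940_s_at, carries a suffix that marks probes shared with related transcripts, and it did not follow the first at 3X. It had 3.66, 3.46 and 3.70 in cortex and 3.70, 3.93 and 3.77 in cerebellum at 3X. The groups overlapped, and the difference of -0.19 ± 0.13 (SE) did not pass (limma adjusted p = 0.789). At 1X the same set had 3.46 in cortex and 6.14 in cerebellum, a difference of -2.69, so that its cerebellar signal stood apart on the 1X array and not on the 3X arrays. Gabrb2, the beta2 subunit gene that lies next to Gabra6 on chromosome 11 in RefSeq with no other coding gene between them, differed with the opposite sign, at 4.87, 4.93 and 5.14 in cortex against 4.51, 4.44 and 4.83 in cerebellum. Its groups did not overlap, but its difference of 0.39 ± 0.14 (SE) did not pass (limma adjusted p = 0.368).

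Gria1 and Gria2 encode AMPA receptor subunits, and Gria2 is the subunit that keeps these channels nearly impermeable to calcium. Gria1 set 92943_at had 8.82, 8.69 and 8.48 in cortex, against 7.85, 7.74 and 7.90 in cerebellum. All cortex arrays lay above all cerebellum arrays, with a difference of 0.83 ± 0.11 (SE, limma adjusted p = 0.00281). At 1X it had 9.84 in cortex and 9.11 in cerebellum, a difference of 0.73, close in size to that at 3X. Gria2 set 92945_at had 7.78, 6.98 and 7.58 in cortex, against 6.53, 6.52 and 6.34 in cerebellum, a difference of 0.98 ± 0.17 (SE, limma adjusted p = 0.0197). The groups did not overlap, but the cortex arrays varied more than the cerebellum arrays, with an SD of 0.42 against 0.11. This call rested on few arrays: the adjusted p was 0.076 without cortex replicate 1, 0.10 without cortex replicate 3 and 0.064 to 0.106 without any of the cerebellum replicates. In an additive fit of all 12 arrays the differences were 0.81 for Gria1 and 0.81 for Gria2, and neither passed (limma adjusted p = 0.411 and 0.121). Averaged over both sets of the gene, Gria1 had a difference of 0.48 and did not pass (limma adjusted p = 0.0791).

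Gria2 had 4 probe sets and they disagreed in call. Set 92947_s_at had 6.44, 5.42 and 5.96 in cortex and 4.54, 5.15 and 5.15 in cerebellum, and its difference of 0.99 ± 0.24 (SE) was as large as that of 92945_at but missed the threshold (limma adjusted p = 0.109). Without cortex replicate 2, the lowest cortex array, it passed. At 1X its difference was 1.52. The remaining sets, 92946_f_at and 162076_r_at, were below the array median on all arrays and differed by 0.16 and -0.01. The second set of Gria1, 92944_at, differed by 0.12, and was above the median on a single array, the cortex 1X array, at 3.53. Of the other AMPA genes, Gria3 had a difference of 0.39 and Gria4 of -0.14, and neither passed.

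The largest of the remaining differences were 0.47 ± 0.13 (SE, limma adjusted p = 0.195) for Grin2a, an NMDA receptor subunit gene, and -0.29 ± 0.10 (SE, limma adjusted p = 0.327) for Glrb, which encodes the beta subunit that anchors glycine receptors at the synapse. Grin2a had 4.83, 4.36 and 4.57 in cortex and 4.27, 4.10 and 3.99 in cerebellum. Neither group of arrays overlapped the other for either gene, although neither difference passed. In all, 12 receptor probe sets had cortex and cerebellum arrays that did not overlap, 9 with cortex higher, against 7.87% of all probe sets, and 3 with cortex lower, against 8.56%. The 9 were Gabra3, Gabrb2, Gabrg1, Gria1 set 92943_at, Gria2 sets 92945_at and 92947_s_at, Gria3, Grik2 set 98864_s_at and Grin2a, and the 3 were Gabra6 set 92939_at, Glrb and Grm8. By family, the median difference was 0.27 over the 8 AMPA sets, 0.13 over the 4 NMDA sets, 0.08 over the 11 GABA-A sets and 0.05 over the 5 kainate sets, against 0.01 over all probe sets.

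**Figure D2:**
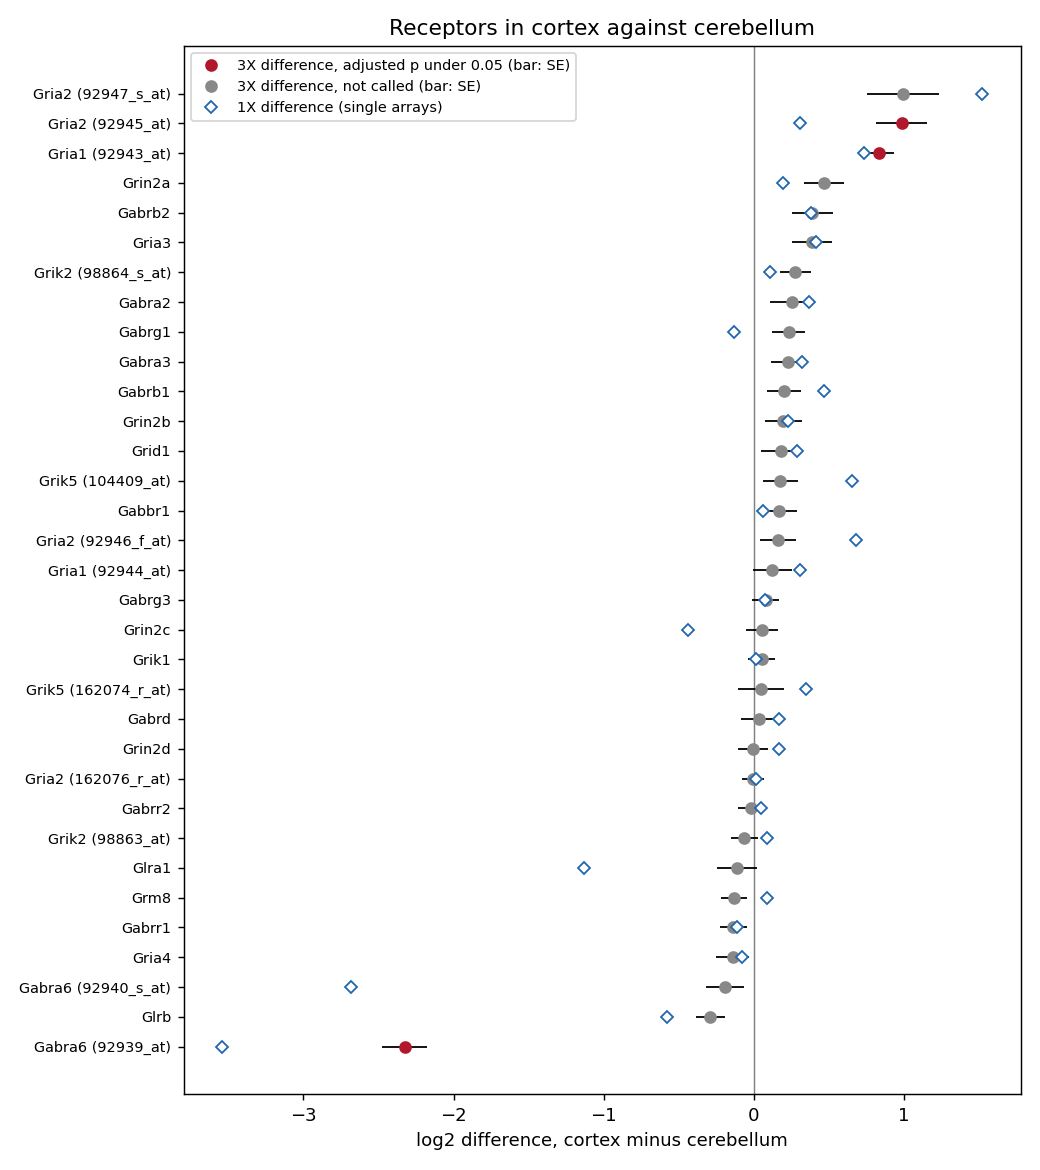
Difference in log2 signal, cortex minus cerebellum (horizontal axis), of the 33 receptor probe sets, with points for the 3X difference, bars for its SE from limma (3 arrays per tissue), red for an adjusted p under 0.05 and open diamonds for the difference between the single 1X arrays. Gabra6 set 92939_at lies at -2.33 at 3X and -3.54 at 1X, and Gria1, Gria2 set 92945_at and the uncalled Gria2 set 92947_s_at lie between 0.83 and 0.99 at 3X.

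The single 1X arrays, which the 3X fit did not use, gave differences between the same regions with no error of their own. The sign was the same at 3X and 1X in 26 of the 33 receptor probe sets (78.8%), against 62.4% of all probe sets. Across the 33 sets, which share their arrays, Pearson's r between the 3X and 1X differences was 0.81, against 0.61 over all probe sets. Spearman's rho was 0.73, against 0.40. At 1X, 4 receptor sets differed by at least 2-fold, against 1.46% of all probe sets, and 1 of them, Gabra6 set 92939_at, did so at 3X. The other 3 were Gabra6 set 92940_s_at, Gria2 set 92947_s_at and Glra1. Glra1, the alpha1 subunit of the glycine receptor, had 5.15 in cortex and 6.28 in cerebellum at 1X, a difference of -1.13. At 3X it had 5.90, 5.79 and 5.48 in cortex and 5.66, 6.03 and 5.82 in cerebellum, which overlapped, with a difference of -0.11 ± 0.13 (SE). No receptor set had differences of opposite sign that both exceeded 0.5. Against liver the receptor sets kept their sign less often than all probe sets. The shares were 60.6% against 65.4% for cortex minus liver, and 63.6% against 67.8% for cerebellum minus liver.

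The second comparison asked which receptors were higher or lower in brain, taken as the mean of cortex and cerebellum, than in liver. At 3X, 8 of the 33 receptor probe sets were higher in brain, which is 24.2%, against 12.3% of all probe sets, and 1 was lower, against 8.17%. The 8 covered a GABA-B subunit (Gabbr1), GABA-A subunits (Gabra6, Gabrb1), the glycine receptor beta subunit (Glrb) and AMPA subunits (Gria1, 2 sets of Gria2, and Gria4). No kainate, delta or metabotropic glutamate receptor set passed, and the single NMDA receptor set that passed, Grin2d, was lower in brain. Differences of at least 2-fold were found for 4 sets, 12.1%, against 3.14% of all probe sets that were at least 2-fold higher.

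Gabbr1 encodes the GABA-binding subunit of the GABA-B receptor and had the largest difference. Its signals were 8.53, 8.33 and 8.68 in cortex and 8.33, 8.22 and 8.48 in cerebellum, against 6.86, 7.09 and 6.79 in liver. Brain and liver arrays were well apart and the brain regions overlapped. Brain was 2.86-fold higher than liver, a difference of 1.52 ± 0.10 (SE, limma adjusted p = 2.1e-06). Among the GABA-A genes, Gabrb1, a beta subunit gene, had 4.14, 4.36 and 4.34 in cortex and 4.04, 4.18 and 4.01 in cerebellum, against 3.69, 3.52 and 3.28 in liver. All 6 brain arrays lay above all liver arrays, and the difference was 0.68 ± 0.10 (SE, limma adjusted p = 0.000606). Gabra6 set 92939_at also passed, at 1.05 ± 0.13 (SE, limma adjusted p = 0.000183), but this mean joined a cerebellum well above liver to a cortex that was not: cerebellum minus liver was 2.21 and cortex minus liver was -0.12. The remaining GABA-A probe sets lay between -0.06 and 0.15 in brain minus liver, and none passed.

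Glrb set 104449_at was dim throughout at 3X, with 2.43, 2.11 and 2.24 in cortex and 2.57, 2.56 and 2.52 in cerebellum, against 1.90, 1.92 and 1.74 in liver. Its groups did not overlap, and brain minus liver was 0.55 ± 0.08 (SE, limma adjusted p = 0.00078), and the 1X arrays had 3.48 in cortex and 4.06 in cerebellum, against 1.46 in liver. A difference between signals this far below the array median is no measured ratio of RNA. Gria2, which lies next to Glrb on chromosome 3 in RefSeq with no other coding gene between them, was higher in brain by its sets 92945_at and 92947_s_at. Set 92945_at had the cortex and cerebellum signals given above against 5.66, 5.56 and 5.56 in liver, and brain minus liver was 1.36 ± 0.15 (SE, limma adjusted p = 6.97e-05). Set 92947_s_at had 4.18, 4.14 and 3.90 in liver, and brain minus liver was 1.37 ± 0.21 (SE, limma adjusted p = 0.000801). In both sets every brain array was above every liver array.

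Gria1 set 92943_at had 7.42, 7.57 and 7.35 in liver, and its brain signals, given above, were all higher. Brain minus liver was 0.80 ± 0.09 (SE, limma adjusted p = 9.9e-05), made up of 1.22 for cortex and 0.39 for cerebellum. The second set of Gria1, 92944_at, went the other way without passing, at -0.19 (limma adjusted p = 0.307). Gria4 had 3.01, 3.09 and 2.79 in cortex and 3.11, 3.27 and 2.94 in cerebellum, against 2.71, 2.76 and 2.58 in liver. The brain arrays lay just above the liver arrays, and the difference of 0.35 ± 0.10 (SE, limma adjusted p = 0.0273) was no longer called when liver replicate 1 or 3, cortex replicate 1 or 2, or cerebellum replicate 1 or 2 was left out. Grin2d, an NMDA receptor subunit gene, had 6.46, 6.75 and 6.55 in cortex and 6.56, 6.59 and 6.63 in cerebellum, against 7.01, 6.76 and 6.84 in liver. Its brain minus liver difference of -0.28 ± 0.09 (SE, limma adjusted p = 0.0408) was lost under quantile normalization, under the trend and robust settings of limma, in the additive fit of all 12 arrays and without most single arrays.

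**Figure D3:**
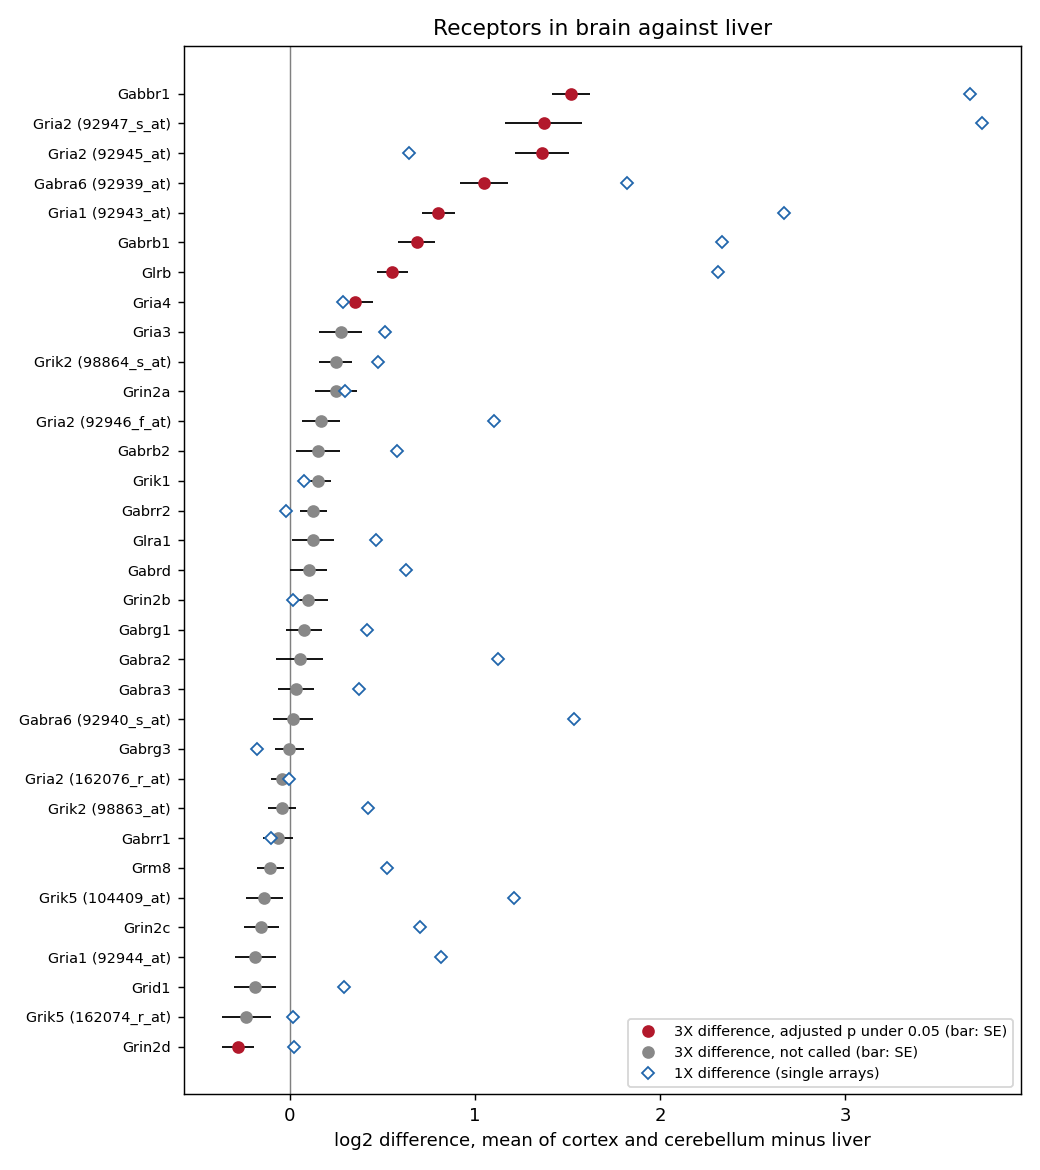
Difference in log2 signal, mean of cortex and cerebellum minus liver (horizontal axis), of the 33 receptor probe sets, with points for the 3X difference, bars for its SE from limma (3 arrays per tissue), red for an adjusted p under 0.05 and open diamonds for the difference between single 1X arrays. Most 1X differences lie to the right of the 3X points, as for Gabbr1 at 1.52 (3X) and 3.67 (1X), and Gria2 set 92945_at is an exception at 1.36 (3X) and 0.64 (1X).

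Each brain region was also set against liver, in comparisons that share the liver arrays. In cortex, 9 receptor sets were higher than in liver, against 10.1% of all probe sets, and none was lower, against 6.64%. In cerebellum, 8 were higher, against 10.2% of all probe sets, and none was lower, against 6.38%. At an unadjusted p under 0.05 in either direction by limma, the receptor sets counted 12 in cortex, against 28.2% of all probe sets, and 9 in cerebellum, against 27%. Grik2 set 98864_s_at (0.39 ± 0.10), Grin2a (0.48 ± 0.13) and Gria3 (0.47 ± 0.13, all SE) passed in cortex, with limma adjusted p of 0.0259, 0.0302 and 0.0347, and had 0.11, 0.01 and 0.08 in cerebellum minus liver. All of these were lost without liver replicate 1, liver replicate 2 or cortex replicate 3. Grik2 set 98864_s_at was above the array median on 2 arrays, and the other Grik2 set, 98863_at, had -0.07 in cortex minus liver. The mean of both Grik2 sets, at 0.16, did not pass (limma adjusted p = 0.234). Gabra6 and Gria4 passed in cerebellum, at 2.21 and 0.42, and had -0.12 and 0.28 in cortex minus liver. The Gria4 call was lost without liver replicate 1 or 3 or cerebellum replicate 1 or 2. Gria1 set 92943_at, also called in cerebellum, was lost without liver replicate 1 or 3 or cerebellum replicate 1 or 3. It was lost too in the additive fit of all 12 arrays, and the mean per gene did not pass (limma adjusted p = 0.75). Gria2 set 92947_s_at, called in cerebellum as well, was lost without any of the liver replicates and without cerebellum replicate 2 or 3. Whether the regions differ is tested by the cortex and cerebellum comparison above, where Grik2, Grin2a, Gria3 and Gria4 did not pass. Glrb was 0.70 ± 0.10 higher in cerebellum and 0.41 ± 0.10 higher in cortex than in liver (SE, limma adjusted p = 0.000539 and 0.0145). Its cortex difference was not called under quantile normalization, in the additive fit of all 12 arrays or without cortex replicate 1.

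At 1X the brain minus liver differences of most of these receptors were larger. By at least 2-fold, 10 of the 33 sets were higher in brain at 1X, which is 30.3%, against 6.65% of all probe sets, and none was lower, against 6.54%. All 10 were smaller at 3X, as were 88.9% of the probe sets that were at least 2-fold higher at 1X, and 3 of the 10 were at least 2-fold higher at 3X too. The median brain minus liver difference over the 33 sets was 0.10 at 3X and 0.51 at 1X, against -0.01 at 3X and 0.02 at 1X over all probe sets. Gabbr1 differed by 1.52 at 3X and 3.67 at 1X, and Gria2 set 92947_s_at by 1.37 at 3X and 3.74 at 1X. Gria1 set 92943_at differed by 0.80 at 3X and 2.67 at 1X, Gabrb1 by 0.68 at 3X and 2.33 at 1X, and Glrb by 0.55 at 3X and 2.31 at 1X. The others of the 10 were both Gabra6 sets, Gabra2, Gria2 set 92946_f_at and Grik5 set 104409_at, at 1.10 to 1.82 at 1X and -0.14 to 1.05 at 3X. Among the called sets, 3 were not larger at 1X: Gria2 set 92945_at had 1.36 at 3X and 0.64 at 1X, Gria4 had 0.35 at 3X and 0.29 at 1X, and Grin2d had -0.28 at 3X and 0.02 at 1X. Pan-neuronal marker genes moved in the same direction. Their mean signal over 5 genes was 5.99 to 6.48 in cortex and 5.94 to 6.19 in cerebellum at 3X, against 7.86 in cortex and 7.79 in cerebellum at 1X, and 4.86 to 5.25 in liver at 3X, against 4.14 in liver at 1X. The rise in liver was uneven: 3X minus 1X was 3.18 for Snap25, 0.82 for Eno2 and 0.10 to 0.34 for Nefl, Syt1 and Stmn2. The part of these shifts of neuronal markers in the receptor differences was not tested.

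The third comparison asked how the 3X procedure shifted receptor signals, with 3X set against 1X and tissue as a term over all 12 arrays. At 3X, 10 of the 33 receptor sets were higher, which is 30.3%, against 37.5% of all probe sets, and 1 was lower, which is 3.03%, against 19.5%. Over all probe sets the median shift was 0.12 on the deposited values, with 0.08 after a further quantile normalization and 0.14 with centred medians, and over the receptor sets it was 0.13 on the deposited values. The sets called higher were Grik5 set 162074_r_at, Grin2a, Gria2 set 92945_at, Gabrg3, Gria4, Grin2b, Grid1, Gabrr1, Grin2d and Gabrr2. All 4 NMDA subunit sets had a shift above 0, with a family median of 0.34. Of these, 3 were called higher, against 37.5% of all probe sets.

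Grik5, a kainate receptor subunit gene, had the largest shift and the only called one of at least 2-fold upward, which 2.21% of all probe sets had. Its set 162074_r_at had 7.17, 7.16 and 7.06 in cortex at 3X, against 6.13 at 1X. It had 7.17, 6.95 and 7.13 in cerebellum at 3X, against 5.78 at 1X, and 7.33, 7.71 and 6.99 in liver at 3X, against 5.94 at 1X. The 3X arrays of each tissue lay above its 1X array by a similar amount, and the shift was 1.23 ± 0.13 (SE, limma adjusted p = 2.92e-05), while brain minus liver at 3X was -0.23 and did not pass. The other set of Grik5, 104409_at, shifted by -0.50 (limma adjusted p = 0.0753), so the sets of this gene disagreed in sign. Their mean shifted by 0.37 and did not pass (limma adjusted p = 0.0595).

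Gria2 set 92945_at shifted by 0.58 ± 0.19 (SE, limma adjusted p = 0.0229), with 3X signals of 6.98 to 7.78 in cortex, 6.34 to 6.53 in cerebellum and 5.56 to 5.66 in liver, against 6.29, 5.99 and 5.5 at 1X. The 3X mean was above the 1X array by 1.16 in cortex, 0.48 in cerebellum and 0.10 in liver, and the other sets of Gria2 had shifts of -0.57, -0.25 and -0.04 that did not pass. Averaged over the sets of the gene, Gria2 had a shift of -0.07, so its direction depends on the set. Grin2a had 4.83, 4.36 and 4.57 in cortex, 4.27, 4.10 and 3.99 in cerebellum and 3.94, 4.15 and 4.22 in liver at 3X, against 3.89, 3.70 and 3.5 at 1X. All 3X arrays of a tissue lay above its 1X array, and the shift was 0.57 ± 0.11 (SE, limma adjusted p = 0.00124). Gabrg3, a GABA-A gamma subunit gene, had 4.98, 5.09 and 5.03 in cortex, 5.06, 4.95 and 4.85 in cerebellum and 5.10, 5.02 and 4.86 in liver at 3X, against 4.50, 4.43 and 4.64 at 1X. Its shift of 0.47 ± 0.07 (SE, limma adjusted p = 0.000298) was called, while its tissue differences at 3X were at most 0.08 in size.

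Gria4 shifted by 0.43 ± 0.08 (SE, limma adjusted p = 0.00163), and its 1X signals of 2.54 in cortex, 2.62 in cerebellum and 2.29 in liver lay below the 3X signals given above. Grin2b, the NMDA subunit gene known from forebrain, had 3.58, 3.19 and 3.24 in cortex, 3.27, 3.10 and 3.06 in cerebellum and 3.32, 3.07 and 3.03 in liver at 3X, against 2.92, 2.69 and 2.78 at 1X. Its shift was 0.41 ± 0.09 (SE, limma adjusted p = 0.00379), and both genes were at or below the array median on nearly all arrays. Grid1, Gabrr1, Grin2d and Gabrr2 shifted by 0.38, 0.37, 0.27 and 0.19. Glrb was the only receptor called lower at 3X, by -0.78 ± 0.27 (SE, limma adjusted p = 0.0274), and this average joined opposite directions: -1.22 in cortex, -1.51 in cerebellum and 0.39 in liver. With tissues as units, so that each tissue gave a single 3X minus 1X difference, 6 of the 11 remained called, and Glrb, Gria2 set 92945_at, Grid1, Grin2d and Gabrr2 were lost. Without the liver 1X array 17 sets were called, and 8 of them were not called before, while Grid1 and Grin2d were lost. Without the cortex 1X array or without the cerebellum 1X array, Glrb, Gria2 set 92945_at and Gabrr2 were lost, and Grin2d was lost without the cerebellum 1X array.

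The shift differed between tissues for 12 of the 33 receptor probe sets, which is 36.4%, against 10.4% of all probe sets (limma moderated F test of the interaction, Benjamini-Hochberg). This test takes the spread of a 1X group, which has 1 array, to be that of the 3X groups. In liver, 32 of 33 receptor sets had a 3X mean above the 1X array, against 65.3% of all probe sets, and the median shift was 0.40, against 0.15 over all probe sets. In cortex 18 of 33 were above, against 63.2% of all probe sets, with a median of 0.03, against 0.11. In cerebellum 15 of 33 were above, against 64.2%, with a median of -0.04, against 0.14. The 12 sets included both sets of Gabra6 and of Gria1, 2 sets of Gria2, Gabbr1, Gabrb1, Glrb, Grik5 set 104409_at, Grin2c and Grm8. Quantile normalization ended the calls of Gabra6 set 92939_at, Gria1 set 92944_at and Grm8 (limma adjusted p = 0.055, 0.0737 and 0.0749), and the mean over the 4 sets of Gria2 did not pass (limma adjusted p = 0.0853).

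**Figure D4:**
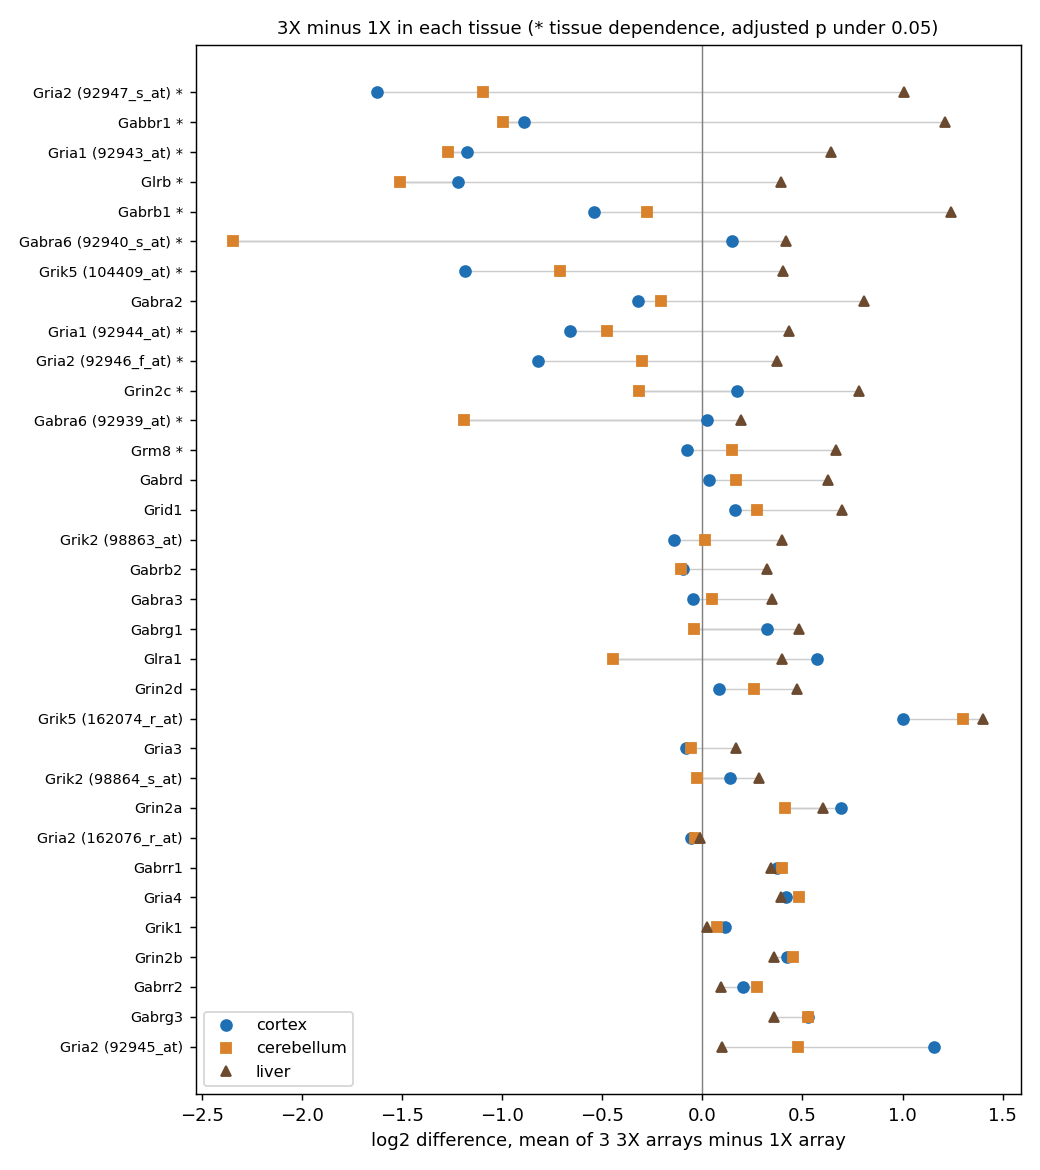
Difference in log2 signal, mean of the 3X arrays (3 per tissue) minus the 1X array (horizontal axis), of the 33 receptor probe sets, with circles for cortex, squares for cerebellum and triangles for liver, and a star after the name for a tissue dependence at an adjusted p under 0.05. Liver triangles lie at or above 0 for all sets except Gria2 set 162076_r_at, while cortex or cerebellum lies below -1 for Gria2 set 92947_s_at, Gria1 set 92943_at, Glrb, Grik5 set 104409_at and both Gabra6 sets.

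For Gabbr1, the 3X signals of 8.33 to 8.68 in cortex and 8.22 to 8.48 in cerebellum lay below the 1X signals of 9.40 and 9.34, whereas the 3X signals of 6.79 to 7.09 in liver lay above the 1X signal of 5.70. The shifts were -0.89 in cortex, -1.0 in cerebellum and 1.21 in liver (limma adjusted p = 0.000192). Gria1 set 92943_at had the same pattern, with 3X signals of 8.48 to 8.82 in cortex and 7.74 to 7.90 in cerebellum, against 9.84 and 9.11 at 1X, and 7.35 to 7.57 in liver at 3X, against 6.80 at 1X. Its shifts were -1.18 in cortex, -1.27 in cerebellum and 0.64 in liver (limma adjusted p = 0.000224). Gabrb1 had 1X signals of 4.82 in cortex, 4.35 in cerebellum and 2.25 in liver, and its shifts were -0.54, -0.28 and 1.24 (limma adjusted p = 0.000857). In all of these the 3X arrays lay below the 1X array in both brain regions and above it in liver.

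Gabra6 set 92940_s_at had the strongest tissue dependence, with shifts of 0.15 in cortex, -2.35 in cerebellum and 0.42 in liver (limma adjusted p = 7.95e-05), and its 3X mean was below the 1X array in cerebellum alone, where the 1X signal was 6.14. Grik5 set 104409_at had 3.09, 3.18 and 3.15 in cortex, 3.14, 2.97 and 2.78 in cerebellum and 3.4, 3.15 and 3.02 in liver at 3X, against 4.33, 3.67 and 2.79 at 1X. Its shifts were -1.19 in cortex, -0.71 in cerebellum and 0.40 in liver (limma adjusted p = 0.00289), and at 3X its tissues overlapped, although its 1X brain signals were 1.21 above liver. For Glrb the dependence had a limma adjusted p of 0.000185 with the shifts given above. Grin2c, an NMDA subunit gene known from cerebellar granule cells, had 5.92, 6.06 and 5.93 in cortex, 5.84, 5.87 and 6.03 in cerebellum and 6.02, 6.32 and 5.94 in liver at 3X, against 5.80, 6.23 and 5.31 at 1X (limma adjusted p = 0.0195). Its cerebellum array was the highest at 1X, and its tissues overlapped at 3X.

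Of the sets that did not enter a call in any comparison, Gabrd, the delta subunit gene of extrasynaptic GABA-A receptors, had 6.35, 6.49 and 6.15 in cortex, 6.32, 6.35 and 6.22 in cerebellum and 6.43, 6.14 and 6.07 in liver at 3X, which overlapped throughout. Gabra2 and Glra1 had adjusted p of 0.0535 and 0.0574 for tissue dependence (limma). Grik1, Grik2 set 98863_at, Gabra3 and Gabrg1 had brain minus liver differences between -0.04 and 0.15 at 3X. The rho subunit genes Gabrr1 and Gabrr2, called above for 3X minus 1X, are known from retina and are neighbours on chromosome 4 in RefSeq. These 2 genes differed by at most 0.14 between any tissues at 3X. Gabrg1 and Gabra2, neighbours on chromosome 5, likewise had no tissue difference that passed.

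The genes that make, carry and anchor these receptors and transmitters were counted with lists from textbook knowledge. Of 5 measured genes of GABA synthesis, transport and breakdown, 3 were higher in brain than in liver, against 12.3% of all probe sets, 1 was lower, against 8.17%, and none passed between cortex and cerebellum, against 1.06%. The median brain minus liver difference was 0.75. Slc32a1, the vesicular transporter of GABA and glycine, was higher by 1.57, Gad1, the enzyme that makes most GABA, by 1.31 and Gad2 by 0.75, while Slc6a13, a GABA transporter, was lower at -0.81 (limma adjusted p at most 0.000233). On the 1X arrays the brain minus liver difference was 2.42 for Slc32a1, 4.43 for Gad1, 0.16 for Gad2 and -1.88 for Slc6a13, and Gad2 was above the array median on no array. Of 6 genes of glutamate transport and metabolism, 3 were higher in brain, against 12.3% of all probe sets: Glul by 0.62, Slc1a2 by 0.61 and Slc1a4 by 0.39, with a median of 0.28. At 1X these differed by 0.45, -0.16 and 0.67, so that Slc1a2 had the opposite sign there. At 3X Slc1a2 passed in cortex minus liver (0.91) and not in cerebellum minus liver (0.31, limma adjusted p = 0.239). Of 6 genes of glycine transport and cleavage, Shmt1 was lower in brain, at -0.66, against 8.17% of all probe sets, and none was called higher.

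Of 6 measured genes of inhibitory receptor clustering and trafficking, Nsf and Gabarapl1 were higher in brain, by 0.80 and 0.70, against 12.3% of all probe sets. None passed between cortex and cerebellum, although Nsf was at 0.48 with arrays that did not overlap (limma adjusted p = 0.083). At 3X, 4 of the 6 were lower than at 1X, against 19.5% of all probe sets: Gabarapl1 by -2.10, Gabarap by -2.00, Gabarapl2 by -1.48 and Nsf by -1.05. Of 17 genes for scaffold, auxiliary and trafficking proteins of glutamate receptors, 5 were higher in brain than in liver, against 12.3% of all probe sets. These were Camk2b by 1.19, Cacng2 by 0.97, Nrgn by 0.72, Dlg1 by 0.37 and Nptx1 by 0.29, and the median of the 17 was 0.21. The Nrgn mean joined 1.61 in cortex minus liver to -0.17 in cerebellum minus liver. Nptx1 passed in cortex minus liver (0.36) and not in cerebellum minus liver (0.23, limma adjusted p = 0.161). Dlg1 was above the array median on no array. Between the brain regions, Nrgn, a calmodulin-binding protein of forebrain neurons, was higher in cortex by 1.77, and Cbln1, the cerebellin that links parallel fibres to Purkinje cells, was lower in cortex, at -0.82 (limma adjusted p = 7.75e-05 and 0.0035). Cbln1 averaged 2.46 in cortex and 3.28 in cerebellum at 3X.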

How the data were processed

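Total RNA of cortex, cerebellum and liver was hybridised to 12 MG_U74Av2 arrays in 6 groups, with 3 technical replicates per tissue at 3X and 1 array per tissue at 1X. The authors deposited log2 signals per probe set made with RMA, per the submitters' processing notes. RMA corrects the background, quantile-normalizes the probes and summarises each set. The RMA version, the base of the logarithm and the set of arrays normalized together are not stated in any label or header. Base 2 was read from the values, whose highest was 14.46, above the natural log of a 16-bit scanner maximum (11.09). No pair of arrays held identical values. Precision is limited by the number of arrays.

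Out of 12488 probe sets in the table, 66 manufacturer controls were left out. Symbols came from the platform annotation (10833 sets with 1 symbol, 396 with several, 1193 with none), and the gene identifiers of all 33 receptor sets were found in RefSeq (GRCm38.p6) with no symbol changed. The deposited values were fitted with limma 3.58.1 (R 4.3.3; functions lmFit, contrasts.fit and eBayes; two-sided tests) with no pseudocount and no filter, with Benjamini-Hochberg adjustment over 12422 probe sets and calls at an adjusted p under 0.05. Tissues were compared on the 9 3X arrays, which share an estimate of the spread. The 3X minus 1X shift came from an additive fit with tissue over 12 arrays, and its tissue dependence from a moderated F test over 6 group means. Tissue differences at 1X were described without a test.

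The members and gene lists, the kidney list included, were chosen with earlier results of these data known. Values of every array were given for members called between cortex and cerebellum, the 10 with the largest called brain minus liver difference, up to 6 in each direction for 3X minus 1X and the 6 with the largest F for tissue dependence. Other members were named where sets of a gene disagreed, or where 3X and 1X differences were opposite and both over 0.5. Up to 4 called genes per list were named, and Nptx1 was added after its values were seen. A list gene was represented by its set with the highest mean. Same-numbered 3X replicates deviated from their group means with r of -0.10 to 0.34 in 9 pairs, over 0.1 in 5. The pairs of replicate 3 had r of 0.29 to 0.34. Whether a shared number marks a shared batch was not tested, and the main fits had no block. Alternatives were quantile normalization, median centring, sets above the median level, sets without a suffix, a mean per gene, eBayes with trend and robust options, replicate number as a block, other arrays in the fit, tissues as units, and fits without each array in turn. The main fits were first tested on simulated data, and the alternatives were not.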

Additional observations from a re-analysis of the deposited data

Results flagged for a closer look

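The tissue dependence of the 3X minus 1X shift brought 12 receptor probe sets forward, each because the shifts of cortex, cerebellum and liver differed by limma's test of the interaction. In 8 of them the 3X mean lay below the 1X array in both brain regions and above it in liver. These were Glrb (adjusted p = 0.000185), Gabbr1 (adjusted p = 0.000192), Gria1 set 92943_at (adjusted p = 0.000224), Gabrb1 (adjusted p = 0.000857), Grik5 set 104409_at (adjusted p = 0.00289), Gria2 set 92947_s_at (adjusted p = 0.00894), Gria2 set 92946_f_at (adjusted p = 0.0196) and Gria1 set 92944_at (adjusted p = 0.038). Gria2 set 92947_s_at had shifts of -1.63 in cortex, -1.10 in cerebellum and 1.01 in liver. Gria2 set 92946_f_at had -0.82, -0.30 and 0.37 in the same order, and Gria1 set 92944_at had -0.66, -0.48 and 0.43. The call of Gria1 set 92944_at was lost under quantile normalization and without any of liver replicates 1 and 2, cortex replicate 1 and cerebellum replicates 1, 2 and 3. In the remaining 4 the brain regions differed in sign. Both sets of Gabra6 lay below the 1X array in cerebellum alone, with adjusted p of 7.95e-05 for 92940_s_at and 0.0202 for 92939_at, whose shifts were 0.03 in cortex, -1.19 in cerebellum and 0.19 in liver. Grin2c, an NMDA receptor subunit gene known from cerebellum, had 0.17 in cortex, -0.32 in cerebellum and 0.78 in liver (adjusted p = 0.0195), and Grm8, a metabotropic glutamate receptor gene, had -0.07, 0.15 and 0.67 (adjusted p = 0.0438). The call of Grm8 was lost under quantile normalization and without any 3X array other than liver replicate 3, and that of Gabra6 set 92939_at under quantile normalization. The mean signal of 5 neuronal markers was likewise lower at 3X than at 1X in both brain regions and higher in liver, and its part in these results was not tested.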

How the results depend on the processing

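Of 861 values of single receptor sets under the alternatives, 767 kept their direction and their side of the threshold, 93 were no longer called and 1 changed sign. For tissue dependence the value was F, which has no direction, so only its side of the threshold could change. The change of sign was the 3X minus 1X shift of Gria2 set 92945_at, which became -0.0705 for the mean over the sets of the gene, by the construction of that mean. The additive fit of all 12 arrays called 1 receptor set between cortex and cerebellum. For 3X minus 1X, 6 sets were called among those above the median level, all 6 of the called sets that entered that fit, and 6 with tissues as units. For tissue dependence, 7 were called above the median level, again all that entered. Leaving out an array gave 2 to 4 calls for cortex minus cerebellum, 7 to 9 for brain minus liver and 6 to 10 for cortex minus liver. It gave 5 to 8 for cerebellum minus liver, 10 to 17 for 3X minus 1X and 10 to 14 for tissue dependence. The share of all probe sets called moved too. In cortex minus cerebellum it was 0.66% without cerebellum replicate 2, 2.01% without liver replicate 3 and 1.37% with the replicate block. A change of these counts is therefore no result about receptors alone. The 5 calls of cerebellum minus liver came without liver replicate 1, and the 17 without the liver 1X array. Tissue dependence was not run without a 1X array, since its tissue would have no 1X value. With the replicate block, receptor calls were 3 for cortex minus cerebellum, 8 for brain minus liver, 10 for cortex minus liver and 8 for cerebellum minus liver, against 3, 9, 9 and 8 without it: Grin2d was lost in brain minus liver and Gria4 gained in cortex minus liver. Without arrays of biological replicates, none of these values speaks of other animals, and sets below the array median were not shown to be above background.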
